A study of Mus musculus with 75 samples.

Results

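The obstructed kidneys of mice treated with a control immunoglobulin were compared with contralateral (CL) kidneys of the same group of mice. Libraries were chosen by their labels alone, as those whose genotype field reads IgG, and 16 of the 75 libraries of the series met this rule, 8 from kidneys with unilateral ureter obstruction (UUO) and 8 from CL kidneys. The mice were adults given the Fc part of human IgG by intraperitoneal injection as the control for an antibody against angiopoietin-2, and kidneys were taken 3 days after UUO. By the study's methods these were C57BL6/J mice or wild-type mice of the study's breeding, both sexes were used, and all operated mice received carprofen. The CL kidney comes from an operated mouse and is not a kidney of an untouched animal. Whole kidneys were lysed, so that a lower level of a gene cannot be told apart from fewer cells of the type that makes it. The study's methods give 8 mice for the IgG group and name the CL kidney as an internal control. The labels do not say which CL and UUO kidneys came from the same mouse. The 2 groups were therefore compared unpaired, and any pairing by mouse was not used.

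When a ureter is tied, filtrate backs up into the nephron and the tubule is stretched and injured within days. The proximal tubule, which reabsorbs most filtered solutes and depends on fatty acid oxidation, is known to lose transporters and to switch on injury genes such as *Havcr1*, which encodes kidney injury molecule 1. Infiltrating monocytes, activated pericytes and fibroblasts and newly laid collagen then build up between the tubules, and UUO is widely used as a fast model of kidney fibrosis for this reason.

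Library totals ranged from 172827 to 1237505 counts, and 12926 to 16989 genes had at least 1 count. All 10 markers of kidney segments fixed as a label check, from *Slc34a1* of the proximal tubule to *Aqp2* of the collecting duct, passed the filter on low counts. Listed genes of adrenal gland, skeletal muscle, urothelium and neutrophils did not pass it in any case, and their summed levels were at most 17.8, 151, 48.7 and 53.1 CPM in any library, where CPM are counts scaled to a common library total. Of 9 listed fat genes 2 were tested and 1 was called higher, and their summed level was 35.5 to 181 CPM in CL and 69.4 to 795 CPM in UUO libraries. Libraries bear either plain names (as in B4; 4 CL and 4 UUO) or names with a low line (as in P_1; 4 CL and 4 UUO), and the 2 forms differed in composition: *Gm42418* and *AY036118*, which overlap ribosomal RNA, took 8.24 to 18.7% of counts in the first and 4.10 to 5.74% in the second. What the name form stands for is not given in the labels, and it was a term in the fit. The call for *Fabp4*, the fat gene called higher, was lost within each name form and without this term. At least 10 counts of *Xist* together with at least 10 counts of Y chromosome genes were found in 1 CL and 4 UUO libraries. Whether these 5 libraries hold RNA of more than 1 mouse is not given in the labels and was not tested. At the same minimum of 10 counts another 4 CL and 3 UUO libraries passed for *Xist* alone, and 3 CL and 1 UUO libraries for Y chromosome genes alone, so that this split was not even over the groups.

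A large share of the transcriptome differed between obstructed and CL kidneys. Of 7325 genes that passed the filter, 1494 were higher and 1647 lower in UUO kidneys, which is 20.4% and 22.5% of the genes tested and the background against which each gene list is read. A gene was called when its p-value from edgeR's quasi-likelihood test, adjusted by Benjamini-Hochberg over all genes tested, was under 0.05, and every adjusted p given for a gene comes from this test. Fold changes are on the log2 scale, UUO against CL, with the standard error of the fit, and a value given after "rose by" or in parentheses with ± is such a log2 fold change ± standard error unless CPM is named. In 365 genes (4.98%) all 8 UUO libraries lay above all 8 CL libraries, and in 403 (5.5%) all lay below. At least a 2-fold change was seen in 429 of the genes that rose and 418 of those that fell, and at least a 4-fold change in 98 and 42. Levels are given as CPM after scaling by trimmed mean of M values (TMM). Without TMM the median log2 fold change of all genes moved from 0.03 to 0.17, and 2127 genes were called higher and 1200 lower. When the 5 libraries with both *Xist* and Y chromosome RNA were left out, 2481 genes were called, and 2146 of the 3141 genes were called in the same direction as before. The first principal component held 40.2% of the variance and separated UUO from CL kidneys, and the second held 16.3% and separated the name forms.

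**Figure D1:**
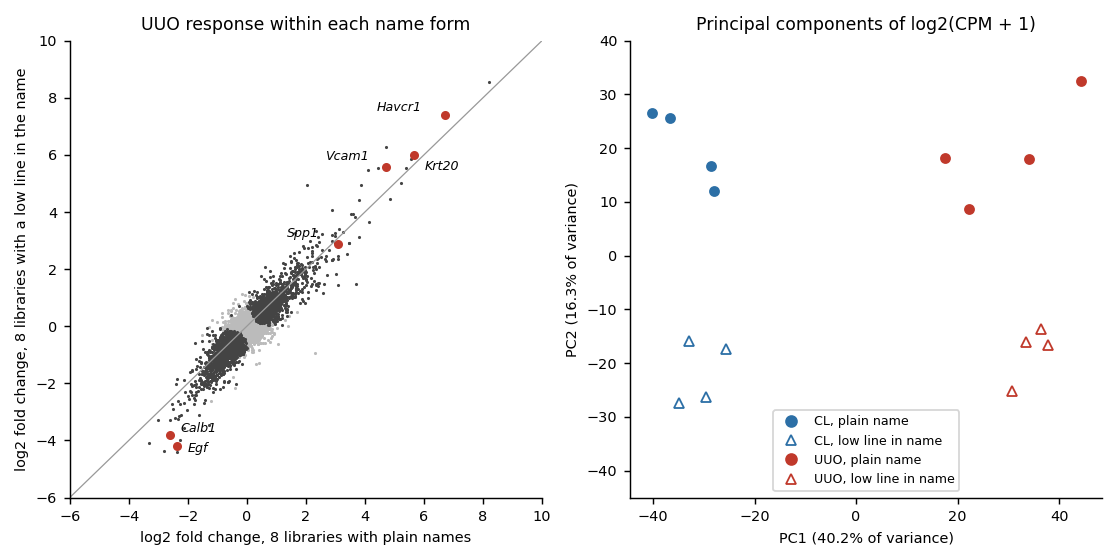
Left, the log2 fold change of each gene between UUO and CL kidneys in the 8 plain-name libraries (x axis) and the 8 low-line libraries (y axis); dark points were called in the fit over all 16 libraries, and 6 genes are named. Right, the first and second principal components of log2(CPM + 1) for the 16 libraries, with UUO libraries in red and CL libraries in blue. UUO and CL libraries part along the first axis, which holds 40.2% of the variance, and name forms part along the second, which holds 16.3%.

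The response was read separately within each name form. In the 8 plain-name libraries 1623 genes were called and in the 8 low-line libraries 2522, and 1273 were called in both, which is 78.4% of the first list and 50.5% of the second. These 1273 moved in the same direction in both. The interaction of treatment and name form was called for 0 of 7325 genes (0.0%) by edgeR and for 0 by DESeq2, with 326 and 208 genes at an unadjusted p under 0.05. Among the named genes called in both forms, the fold change in plain-name and in low-line libraries each lay over 1.5 times from the joint value for *Egf* (log2 fold changes of -2.38 and -4.21), *Calb1* (-2.62 and -3.82), *Gpx6* (-2.80 and -4.37), *Gm42697* (-2.35 and -4.39), *Atp4a* (-2.14 and -3.58), *Slc4a1* (-1.63 and -3.09), *Ces1d* (-1.46 and -2.69), *Timp1* (4.72 and 6.27), *Cd44* (4.11 and 5.48) and *Cd14* (2.89 and 4.09). UUO replicate 2 was a plain-name library. Without it the joint values were -4.10 for *Egf*, -3.83 for *Calb1*, -4.23 for *Gpx6* and -4.10 for *Gm42697*. Its part in the differences between name forms was not tested.

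Among the steepest rises were genes of tubular injury, leukocyte recruitment, complement and coagulation. *Havcr1* ran from 3.8 to 22.3 CPM in the CL libraries (median 8) and from 816 to 1698 CPM in the UUO libraries (median 1305). No UUO library overlapped a CL library, and the difference came to a log2 fold change of 7.08 ± 0.21, adjusted p = 1.75e-18. *Spp1*, which encodes the matrix protein osteopontin, ran from 1916 to 3409 CPM in the CL libraries (median 2829.8) and from 13763 to 35308 CPM in the UUO libraries (median 18168). It alone took 1.52 to 3.23% of all counts in UUO libraries against 0.149 to 0.340% in CL libraries. *Vcam1*, the adhesion molecule that binds leukocyte integrins, ran from 6.7 to 18.3 CPM in the CL libraries (median 11.7) and from 245 to 631 CPM in the UUO libraries (median 517) (log2 fold change of 5.17 ± 0.19, adjusted p = 2.55e-16). *Lcn2*, the urinary injury marker NGAL, ran from 0 to 15.5 CPM in the CL libraries (median 6.62) and from 212 to 409.8 CPM in the UUO libraries (median 348) (log2 fold change of 5.11 ± 0.22, adjusted p = 5.99e-15). These 4 genes did not overlap between the groups in any library.

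*Krt20*, a keratin made by epithelia that include the urothelium, had 0.535 ± 0.812 CPM in CL and 60.7 ± 34.4 CPM in UUO libraries (mean ± SD, n = 8 per group, as for all such pairs), a log2 fold change of 5.83 ± 0.43, adjusted p = 1.65e-12. The 8 listed urothelial genes summed to 0 to 22.8 CPM in CL and 6.66 to 48.7 CPM in UUO libraries, and their part in the rise of *Krt20* was not tested. *Timp1*, an inhibitor of matrix metalloproteinases, had 1.18 ± 1.29 CPM in CL and 66.9 ± 25.1 CPM in UUO libraries, with a log2 fold change of 5.40 ± 0.37. *Cd44*, a receptor for hyaluronan, and *Aoc1*, a diamine oxidase, rose by 4.69 ± 0.37 and 4.40 ± 0.21. *Il1f6*, which encodes the cytokine interleukin-36 alpha, was listed at 0 in the 8 CL libraries and had 286 counts over the 8 UUO libraries. Against a floor of 3 counts over the CL group this is at least 116-fold higher, and its fitted log2 fold change is not a bound.

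Of 41 listed markers of the injured tubule, 34 passed the filter, 30 rose and none fell, with a median log2 fold change of 2.42 against 0.03 over all genes tested. Genes that are low in CL kidneys passed this filter through their UUO libraries, so that the counts of such lists are a description. *Clu*, the secreted chaperone clusterin, had 282 ± 64.5 CPM in CL and 2328 ± 491 CPM in UUO libraries, and the cytoskeletal genes *Vim* (2.23 ± 0.14), *Krt8* (1.43 ± 0.12), *Krt18* (2.60 ± 0.18) and *Anxa2* (1.92 ± 0.14) rose with no overlap between groups. *Aldh1a2*, which makes retinoic acid, rose by 3.75 ± 0.31, and the growth factor genes *Pdgfb* and *Hbegf* by 2.11 ± 0.26 and 1.33 ± 0.25. *Cryab*, a small heat shock protein, rose by 0.81 ± 0.18, a call that was lost in the 8 plain-name libraries (0.51, adjusted p = 0.103). *Krt7*, *Plau* and *Cdh6* were among the 4 members not called, at 0.33 ± 0.14, 0.21 ± 0.10 and 0.47 ± 0.37. Among 32 listed injury transcription factors only 13 passed the filter, and 12 of them rose. They included *Klf6* (2.14 ± 0.15), *Sox4* (2.16 ± 0.22), *Egr1* (1.91 ± 0.31), *Jun* (1.65 ± 0.25), the NF-kappaB subunit *Nfkb1* (1.38 ± 0.20) and *Stat3* (1.19 ± 0.14), which relays interleukin-6 type signals. *Fos*, *Atf3*, *Sox9*, *Runx1* and *Cebpb* were too low to be tested.

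Complement and fibrinogen genes, better known from the liver, rose steeply. *C3*, the central complement component, ran from 18.6 to 85.8 CPM in the CL libraries (median 24.2) and from 1059 to 2031 CPM in the UUO libraries (median 1797) (log2 fold change of 5.47 ± 0.26, adjusted p = 2.01e-14). The 3 chains of fibrinogen rose together, with log2 fold changes of 3.39 ± 0.18 for *Fga*, 4.61 ± 0.36 for *Fgb* and 4.15 ± 0.20 for *Fgg*, and none of the 3 overlapped between the groups. Without CL replicate 5 the log2 fold change of *Fgb* was 5.57. *Serpina10*, a serpin that inhibits coagulation factors, rose by 4.98 ± 0.25. The complement gene *C4b* rose by 1.85 ± 0.35, and *Cfb*, already at 457 CPM in CL kidneys, by 0.73 ± 0.13. *Osmr*, the receptor for oncostatin M, rose by 2.28 ± 0.30. Of the 25 genes in this list 11 passed the filter and all 11 were called higher, while *Saa1*, *Saa2*, *Saa3*, *Hp*, *Il6* and *Lif* were not tested.

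Chemokines that draw neutrophils, T cells and monocytes followed the same direction with 1 exception. *Cxcl1*, a neutrophil chemokine, ran from 0 to 4.32 CPM in the CL libraries (median 0.517) and from 27.5 to 82.3 CPM in the UUO libraries (median 57) (log2 fold change of 5.72 ± 0.44, adjusted p = 4.74e-12). *Cxcl10*, induced by interferons, rose by 3.86 ± 0.22, *Cxcl16* by 1.57 ± 0.14, *Cx3cl1* by 1.22 ± 0.20 and the adhesion molecule *Icam1* by 2.44 ± 0.16. *Cxcl12*, which retains leukocytes and progenitors in tissue, fell (99.8 ± 35 CPM in CL and 56.9 ± 13.9 CPM in UUO libraries, log2 fold change of -0.84 ± 0.16, adjusted p = 1.55e-04). This call was lost in the 8 plain-name libraries. Of 22 genes in this list 15 did not pass the filter, *Ccl2* and *Ccl5* among them.

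To show what lies upstream of the genes with the largest shifts, promoters were read from RefSeq on GRCm38.p6, from 250 bases before to 50 bases after the annotated start, for 16 of the 24 genes named by size of change. The promoters of *Cxcl1* on chr5:90890995-90891294 (plus strand), *Fgb* on chr3:83049814-83050113 (minus strand), *Havcr1* on chr11:46739973-46740272 (plus strand) and *Egf* on chr3:129755273-129755572 (minus strand) are printed 5′ to 3′ on the strand of the gene. They stand for a chemokine, an acute-phase gene and the tubular marker that rose, and for a gene that fell. *Cxcl1* and *Fgb* were the only ones of the 16 with a match to a motif searched. Capitals mark matches to a kappaB-like pattern (GGG, 2 free bases, TT, 1 free base and CC), the core of the motif bound by NF-kappaB, in *Cxcl1* and to TGANTCA, the motif bound by AP-1, in *Fgb*.
Cxcl1: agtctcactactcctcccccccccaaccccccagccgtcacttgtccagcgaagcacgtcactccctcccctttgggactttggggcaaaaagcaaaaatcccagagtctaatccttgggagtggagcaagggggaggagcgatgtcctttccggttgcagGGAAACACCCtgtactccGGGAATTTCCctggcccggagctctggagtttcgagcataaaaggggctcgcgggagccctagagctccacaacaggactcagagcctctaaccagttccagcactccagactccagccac
Fgb: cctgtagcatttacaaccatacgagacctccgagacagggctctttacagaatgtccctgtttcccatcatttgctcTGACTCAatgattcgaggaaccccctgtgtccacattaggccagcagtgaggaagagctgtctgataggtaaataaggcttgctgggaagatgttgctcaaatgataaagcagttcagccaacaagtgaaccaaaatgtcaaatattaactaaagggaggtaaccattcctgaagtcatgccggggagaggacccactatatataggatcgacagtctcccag
Havcr1: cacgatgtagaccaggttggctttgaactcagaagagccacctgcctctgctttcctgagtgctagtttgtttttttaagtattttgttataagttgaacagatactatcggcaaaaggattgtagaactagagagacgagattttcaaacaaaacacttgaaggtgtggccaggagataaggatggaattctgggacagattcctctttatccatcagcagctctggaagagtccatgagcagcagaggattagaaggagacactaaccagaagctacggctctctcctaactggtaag
Egf: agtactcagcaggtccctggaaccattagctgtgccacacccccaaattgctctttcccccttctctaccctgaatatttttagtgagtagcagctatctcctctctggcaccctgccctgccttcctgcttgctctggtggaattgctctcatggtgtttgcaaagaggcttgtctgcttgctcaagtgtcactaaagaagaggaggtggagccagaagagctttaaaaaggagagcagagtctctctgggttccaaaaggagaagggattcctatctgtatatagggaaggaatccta
The *Cxcl1* promoter held 2 matches to the kappaB-like pattern, beginning 89 and 71 bases before the start, and the *Fgb* promoter held 1 match to TGANTCA, beginning 173 bases before it. *Havcr1* and *Egf* held none of the motifs searched. Promoters were read for 9 of the 12 largest rises, and 1 of these held the kappaB-like pattern and 1 TGANTCA. Of the 7 read for the 12 largest falls none held any motif searched. Both strands were searched, and matches to the 2 motifs did not overlap. Of 5826 tested genes with a promoter in the table, 4.98% held the kappaB-like pattern, and the share was 6.56% among genes called higher and 4.53% among genes called lower. TGANTCA was held by 4.6% of tested genes, 5.26% of those higher and 5.22% of those lower. The remaining pattern, GAAA, 2 free bases and GAAA, the core of the element bound by interferon regulatory factors, was held by 2.87%, 4.57% and 2.84%. Over all 32851 promoters of the table the shares were 4.79%, 7.81% and 3.44%. These are matches of letters in a short window and not measured binding.

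**Figure D2:**
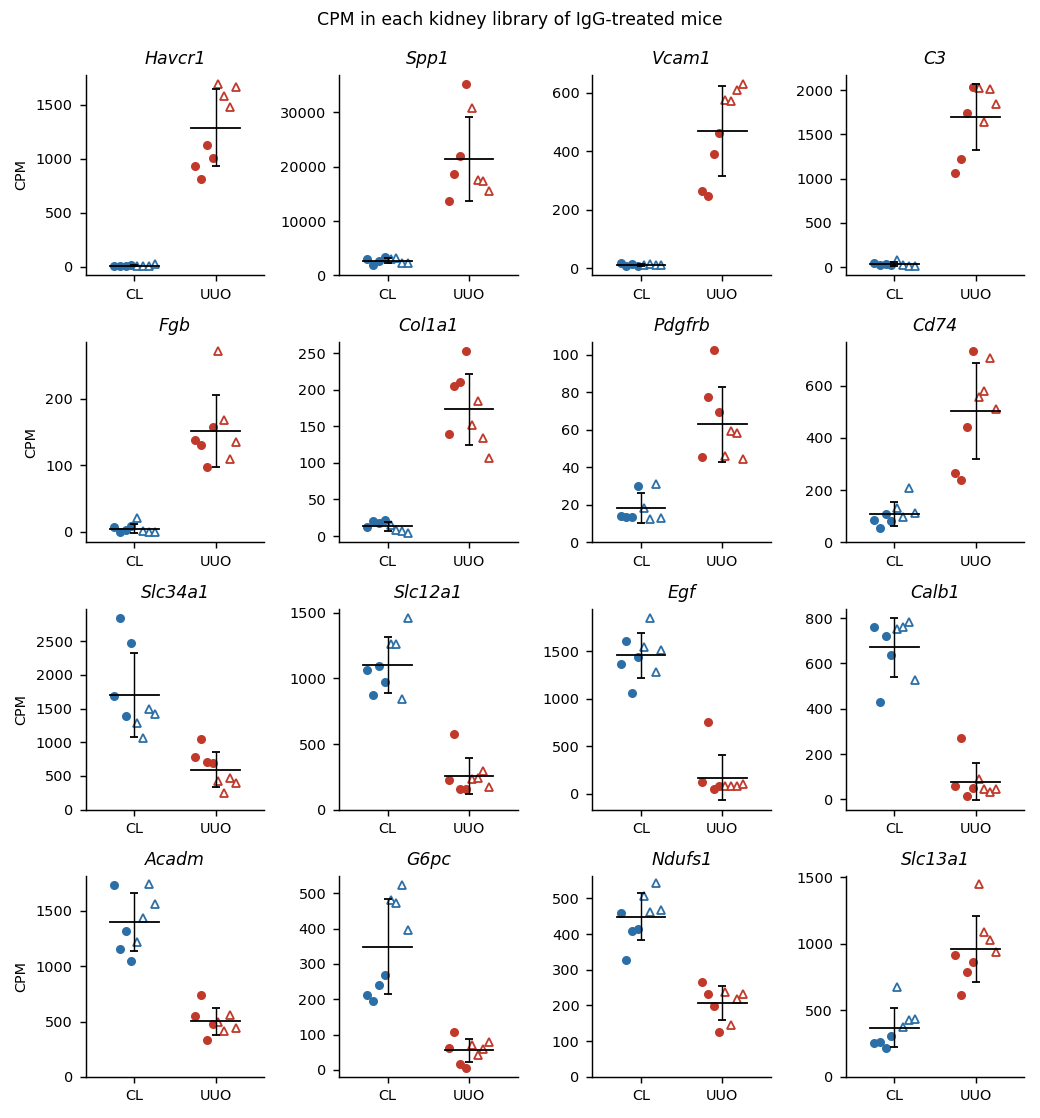
CPM (y axis, linear, a separate scale for each gene) of 16 genes in the 8 CL (blue) and 8 UUO (red) libraries; filled circles are plain-name libraries and open triangles low-line libraries, and bars give the mean ± SD. Havcr1 sits between 816 and 1698 CPM in UUO libraries, and Slc13a1 is the proximal tubule transporter that is higher in UUO.

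Among the steepest falls were genes of the distal nephron and of transport and metabolism in the proximal tubule. *Egf*, which the thick ascending limb and distal tubule secrete into urine, ran from 1059 to 1853 CPM in the CL libraries (median 1474) and from 49.9 to 760.4 CPM in the UUO libraries (median 81.4) (log2 fold change of -3.26 ± 0.39, adjusted p = 2.69e-07). The highest UUO value, 760 CPM, came from 1 library, and the other 7 lay between 49.9 and 119 CPM. *Calb1*, the calcium buffer calbindin of the connecting tubule, ran from 429 to 783 CPM in the CL libraries (median 736) and from 16.6 to 272 CPM in the UUO libraries (median 48.3) (log2 fold change of -3.21 ± 0.33, adjusted p = 2.29e-08). *Gpx6*, a glutathione peroxidase, had 99.7 ± 38.5 CPM in CL and 9.42 ± 10.7 CPM in UUO libraries (log2 fold change of -3.59 ± 0.34, adjusted p = 5.56e-09). *Slc22a7*, an organic anion transporter, fell (-2.79 ± 0.31). The methyltransferase *Inmt* (-3.17 ± 0.42), the cytochrome P450 *Cyp2d12* (-3.06 ± 0.32), the carboxylesterase *Ces1e* (-2.74 ± 0.26), transthyretin (*Ttr*, -2.96 ± 0.29), the proton pump subunit *Atp4a* (-2.83 ± 0.32) and *Tmem207* (-3.28 ± 0.29) completed the largest falls, together with the unnamed loci *Gm47708* and *Gm42697*. Without UUO replicate 2, the plain-name UUO library with the highest *Egf* level, the log2 fold changes were -4.10 for *Egf*, -3.83 for *Calb1*, -4.23 for *Gpx6*, -4.44 for *Gm47708* and -4.10 for *Gm42697*. Without the 5 libraries with both *Xist* and Y chromosome RNA they were -2.90 for *Gm47708* and -3.80 for *Inmt*. *Cyp2d12* came to -3.76 in the low-line libraries and was not tested in the plain-name libraries.

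In the proximal tubule, 28 of 32 tested transporters fell, 1 rose and 3 were not called, with a median log2 fold change of -0.98. *Slc34a1*, the phosphate transporter NaPi-2a, ran from 1060.0 to 2850.5 CPM in the CL libraries (median 1456) and from 249 to 1054 CPM in the UUO libraries (median 579) (log2 fold change of -1.57 ± 0.16, adjusted p = 2.44e-08). The glucose transporter *Slc5a2* fell to 218 ± 59.6 from 523 ± 100.3 CPM, and *Slc6a19*, which takes up neutral amino acids, fell (-2.08 ± 0.21). The organic anion transporters *Slc22a6* and *Slc22a8*, which clear drugs from blood, fell (-1.38 ± 0.24 and -2.43 ± 0.24). *Slc13a1*, the sodium sulfate cotransporter, went the other way. It ran from 219 to 672 CPM in the CL libraries (median 338) and from 611 to 1447 CPM in the UUO libraries (median 926), a log2 fold change of 1.42 ± 0.14, adjusted p = 1.06e-08, and the lowest UUO library lay below the highest CL library. It rose by 1.15 in VeWT and 1.10 in PbWT mice, the 2 other control groups of the series (adjusted p = 1.19e-06 and 4.87e-06). *Slc7a13*, *Slc22a30* and *Slc26a1* were not called.

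The endocytic and brush border genes fell in 14 of 19 cases and none rose. *Lrp2* and *Cubn*, which encode the receptors megalin and cubilin that retrieve filtered protein, fell (-0.97 ± 0.14 and -0.91 ± 0.12), and the brush border protease *Mep1b* fell (-1.80 ± 0.18). Among transcription factors of this segment 8 of 12 tested fell, and 5 without TMM. They included *Hnf4a* (-0.67 ± 0.11), *Ppara* (-0.71 ± 0.21), the mitochondrial regulator *Ppargc1a* (-1.08 ± 0.18) and *Esrra* (-1.20 ± 0.19). The call for *Ppara* was lost in the 8 low-line libraries (adjusted p = 0.144). *Pax8*, which also acts in kidney development, rose (28.7 ± 10.2 CPM in CL and 46.4 ± 12.3 CPM in UUO libraries, log2 fold change of 0.69 ± 0.19, adjusted p = 0.0055), a call that was lost without the 5 libraries with both *Xist* and Y chromosome RNA and in the 8 plain-name libraries.

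**Figure D3:**
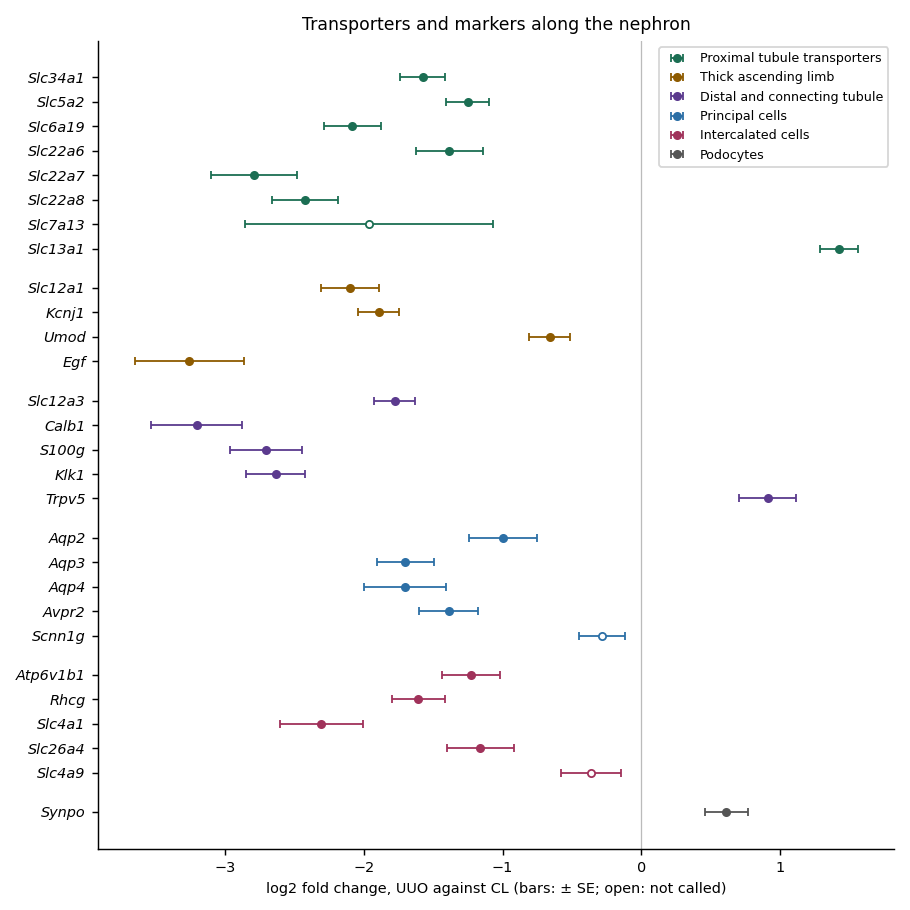
log2 fold change between UUO and CL kidneys (x axis, bars ± SE) for 28 transporters and markers ordered along the nephron and coloured by segment; open symbols were not called. Slc13a1, Trpv5 and Synpo lie to the right of 0, and all others lie to the left.

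In the thick ascending limb 12 of 13 tested genes fell, with a median log2 fold change of -1.42. *Slc12a1*, the cotransporter NKCC2 blocked by furosemide, ran from 843 to 1464 CPM in the CL libraries (median 1082) and from 158 to 579 CPM in the UUO libraries (median 228) (log2 fold change of -2.10 ± 0.21, adjusted p = 1.43e-08). The potassium channel *Kcnj1*, which works with NKCC2, fell (-1.89 ± 0.15). *Umod*, which encodes the urinary protein uromodulin, also fell (4252 ± 661 CPM in CL and 2685 ± 585 CPM in UUO libraries, -0.66 ± 0.15). Its call was lost in the 8 plain-name libraries. *Cldn16*, a paracellular magnesium channel gene, was not called at -0.60 ± 0.25.

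In the distal convoluted and connecting tubule 10 of 15 tested genes fell and 2 rose. *Slc12a3*, the thiazide-sensitive cotransporter, fell from 554 ± 107 to 164 ± 39.5 CPM (log2 fold change of -1.78 ± 0.14, adjusted p = 6.01e-10). Kallikrein (*Klk1*) fell (-2.64 ± 0.21) and the calcium carrier calbindin-D9k (*S100g*) (-2.71 ± 0.26). *Trpv5*, the apical calcium channel of the same cells, rose instead (26.3 ± 15.2 CPM in CL and 52.8 ± 5.62 CPM in UUO libraries, log2 fold change of 0.91 ± 0.20, adjusted p = 7.66e-04), as did the calcium pump *Atp2b1* (0.44 ± 0.13). *Trpv5* was also higher in UUO kidneys of VeWT (1.61) and PbWT mice (0.86). In the IgG mice neither call held without the 5 libraries with both *Xist* and Y chromosome RNA or in the 8 low-line libraries. That for *Atp2b1* was also lost in the 8 plain-name libraries (0.53, adjusted p = 0.0809) and without the low-count filter (0.36, adjusted p = 0.0717).

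Collecting duct genes followed. Among principal cell genes 7 of 9 tested fell, with the water channels *Aqp2* (-0.996 ± 0.24), *Aqp3* (-1.70 ± 0.21) and *Aqp4* (-1.70 ± 0.30) and the vasopressin receptor *Avpr2* (-1.39 ± 0.21). The call for *Aqp2* was lost when the name form was left out of the fit, and without the 5 libraries with both *Xist* and Y chromosome RNA its log2 fold change was -1.62. The sodium channel subunit *Scnn1g* and *Hsd11b2*, which protects the mineralocorticoid receptor from glucocorticoids, were not called at -0.28 ± 0.17 and -0.41 ± 0.18. Of 12 tested intercalated cell genes 11 fell, among them the proton pump subunit *Atp6v1b1* (-1.23 ± 0.21), the ammonia transporter *Rhcg* (-1.61 ± 0.19) and the anion exchangers *Slc4a1* (-2.31 ± 0.30) and *Slc26a4* (-1.16 ± 0.24). The call for *Slc26a4* was lost in the 8 plain-name libraries (-0.77, adjusted p = 0.132). *Slc4a9* was not called (-0.36 ± 0.21). *Slc4a1* is also a red cell gene, and the haemoglobin genes *Hba-a1* and *Hbb-bs* fell as well (-1.18 ± 0.28 and -1.05 ± 0.29). Both of these calls were lost in the 8 low-line libraries (-0.90 and -0.53, adjusted p = 0.0814 and 0.307), that for *Hba-a1* also on thinning (-0.68, adjusted p = 0.0555) and that for *Hbb-bs* also without the 5 libraries with both *Xist* and Y chromosome RNA (-0.82, adjusted p = 0.129). The summed level of the 10 blood genes ranged from 293 to 1891 CPM in CL and from 122 to 696 CPM in UUO libraries, and its part in the fall of *Slc4a1* was not tested.

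Of 8 tested podocyte genes 1 rose, 3 fell and 4 were not called, and without TMM 1 rose and 1 fell. Over all genes tested 20.4% rose and 22.5% fell, the shares to set beside this list and the hormone genes below. *Synpo*, which encodes an actin-binding protein of foot processes, rose by 0.61 ± 0.16. This call was lost in the 8 plain-name libraries. The list's median was -0.13. Kidney hormone genes fell in 4 of 12 tested cases: besides *Egf*, the anti-ageing factor and FGF23 coreceptor *Kl* fell from 428 ± 106 to 146 ± 53.5 CPM (log2 fold change of -1.53 ± 0.14, adjusted p = 5.09e-09). *Ren1*, the gene of renin, was not called (-0.51 ± 0.22, 95% interval -0.95 to -0.08).

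Genes of energy metabolism fell. All 37 tested nuclear genes of respiratory complex I, all 39 of complexes II to V and all 13 genes of the mitochondrial genome were called lower, where 22.5% of all genes were. Their median log2 fold changes were -0.80, -0.86 and -0.90. *Ndufs1*, the largest subunit of complex I, ran from 328 to 542 CPM in the CL libraries (median 459.7) and from 127 to 264 CPM in the UUO libraries (median 224) (log2 fold change of -1.10 ± 0.13, adjusted p = 2.69e-07). Within complex I the log2 fold changes ranged from -1.19 to -0.41, the latter for *Ndufa7*, whose call was lost without UUO replicate 1 or 8 (adjusted p = 0.0609 and 0.0595), without TMM, without the name form, within each name form, on thinning and without the 5 libraries with both *Xist* and Y chromosome RNA (-0.27, adjusted p = 0.269). *Cyc1* of complex III fell (-1.07 ± 0.12) and *Atp5b* of the ATP synthase (-0.88 ± 0.12). Counts of mitochondrial transcripts made up 1.62 to 3.63% of UUO libraries and 2.77 to 5.12% of CL libraries, and *mt-Nd2* and *mt-Nd6* did not overlap between groups. The cytochrome oxidase gene *mt-Co1* had 13661 ± 5498 CPM in CL and 8157 ± 4573 CPM in UUO libraries (log2 fold change of -0.85 ± 0.20, adjusted p = 0.00106), and its call was lost without the name form as a term and without the 5 libraries with both *Xist* and Y chromosome RNA. Without those 5 libraries 33 complex I, 38 complex II to V and 10 mitochondrial genome genes were called, all lower, and without TMM 35, 38 and 13.

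Fatty acid oxidation and the tricarboxylic acid cycle showed the same direction. Of 40 tested genes of fatty acid oxidation and peroxisomes 38 fell and none rose. *Acadm*, the medium-chain acyl-CoA dehydrogenase, ran from 1049.8 to 1746 CPM in the CL libraries (median 1377) and from 332 to 736 CPM in the UUO libraries (median 486) (log2 fold change of -1.48 ± 0.15, adjusted p = 1.32e-08). *Acaa2*, which encodes a mitochondrial thiolase, fell (-1.59 ± 0.18) and *Ehhadh*, a peroxisomal enzyme (-1.40 ± 0.12). *Cpt1a*, the gate of fatty acids into mitochondria, fell (-0.67 ± 0.13), a call that was lost in the 8 plain-name libraries (-0.42, adjusted p = 0.0875). *Pex13* and *Acsm3* were not called, at -0.32 ± 0.19 and -1.19 ± 0.87. All 20 genes of the cycle fell, among them *Idh2* (-1.28 ± 0.13) and citrate synthase, *Cs* (-0.56 ± 0.10), and 14 of the 20 did not overlap between groups. Without TMM 31 genes of fatty acid oxidation and 20 of the cycle were called lower.

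In the list of glucose synthesis and amino acid breakdown 38 of 40 tested genes fell, with a median log2 fold change of -1.21, and 25 did not overlap between groups. *G6pc*, which releases free glucose, ran from 194 to 523 CPM in the CL libraries (median 332) and from 6.33 to 107 CPM in the UUO libraries (median 61.6) (log2 fold change of -2.52 ± 0.24, adjusted p = 7.56e-09). *Pck1*, which commits carbon to glucose synthesis, had 1981 ± 654 CPM in CL and 662 ± 218 CPM in UUO libraries (-1.60 ± 0.19), and *Fbp1* fell (-1.31 ± 0.14). *Ass1* and *Gatm*, which carry the kidney's synthesis of arginine and of the creatine precursor, fell (-1.69 ± 0.16 and -1.74 ± 0.19), and *Miox*, an enzyme that degrades inositol (-1.73 ± 0.15). *Oat* was not called (-0.27 ± 0.19). Among glycolysis genes 11 of 17 tested fell, 1 rose and the median was -0.40. *Pfkm* and *Pdk1* fell (-1.29 ± 0.18 and -1.36 ± 0.24), and *Hk1* (-0.62 ± 0.17), whose call was lost in the 8 plain-name libraries (-0.24, adjusted p = 0.527) and on thinning. The lactate dehydrogenases *Ldha* and *Ldhb* were not called (-0.09 ± 0.12 and 0.22 ± 0.14). *Pdk4*, which holds pyruvate out of the cycle, rose (27.5 ± 20.9 CPM in CL and 49.6 ± 21.7 CPM in UUO libraries, 0.87 ± 0.24), and that call was lost without the name form in the fit, in the 8 low-line libraries (0.60, adjusted p = 0.179) and without the 5 libraries with both *Xist* and Y chromosome RNA. Without those libraries 7 glycolysis genes were called lower and none higher, and without TMM 7 and 2.

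Among enzymes of drug and steroid metabolism 20 of 30 tested fell and none rose. The carboxylesterase *Ces1d* fell (-2.09 ± 0.23), and *Cyp51*, an enzyme of sterol synthesis (-1.57 ± 0.18). In the sterol pathway 8 of 18 tested genes fell, *Hmgcs1* among them (-0.85 ± 0.14). Of 24 tested antioxidant genes 8 were lower and 6 higher, where 22.5% of all genes tested were lower and 20.4% higher. *Sod2*, the mitochondrial superoxide dismutase, fell (-1.25 ± 0.12), and the plasma peroxidase gene *Gpx3* fell from 7364 ± 3064 to 4138 ± 1389.6 CPM. *Hmox1*, the inducible haem oxygenase, rose by 1.59 ± 0.23, with no overlap between groups.

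**Figure D4:**
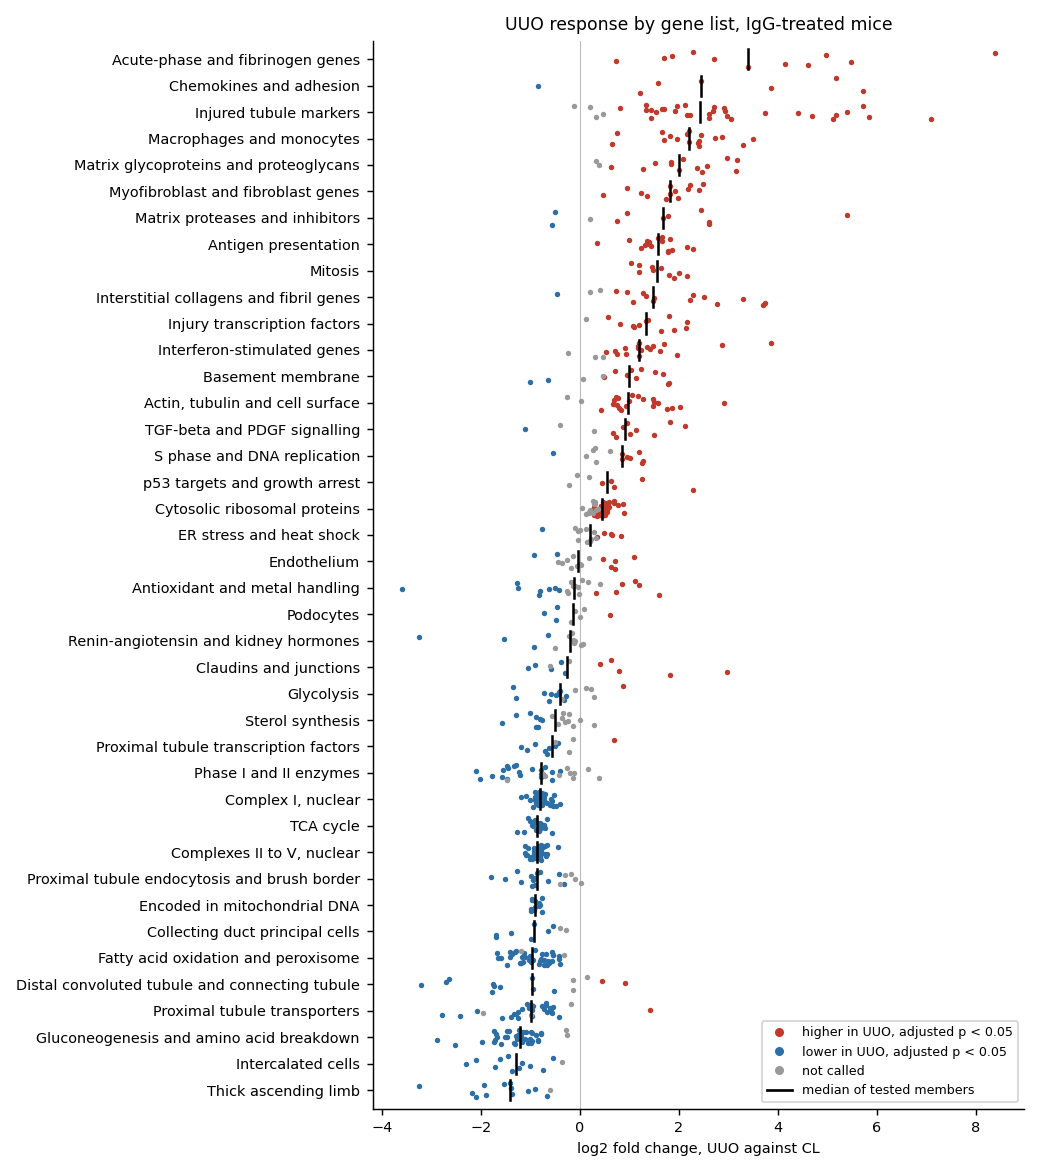
log2 fold change between UUO and CL kidneys (x axis) of each tested gene in 40 lists, ordered by the median (black bar); red genes were called higher, blue lower and grey not called. Lists of injury, inflammation and matrix lie at the top and nephron transport and metabolism at the bottom. The outermost point, at 8.38, is Il1f6, listed at 0 in CL kidneys.

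Matrix genes rose broadly by day 3. Of the 17 tested collagens and fibril-building genes 14 rose and 1 fell, where 20.4% of all genes rose. *Col1a1*, a chain of fibrillar collagen I, ran from 3.72 to 21.6 CPM in the CL libraries (median 13.6) and from 107 to 253 CPM in the UUO libraries (median 168) (log2 fold change of 3.71 ± 0.20, adjusted p = 2.68e-13). *Col3a1* had 48.1 ± 13.5 CPM in CL and 642 ± 119.8 CPM in UUO libraries (3.73 ± 0.16) and *Col1a2* rose by 2.76 ± 0.17. None of the 3 overlapped between groups. *Pcolce*, which helps to process procollagen, fell (-0.47 ± 0.15), a call that was lost without UUO replicate 1 (adjusted p = 0.0556), without TMM, in the 8 low-line libraries, on thinning (-0.12, adjusted p = 0.665) and without the 5 libraries with both *Xist* and Y chromosome RNA (-0.26, adjusted p = 0.281). Glycoproteins rose in 13 of 15 tested cases. Fibronectin, *Fn1*, rose by 2.46 ± 0.17 and tenascin C, *Tnc*, by 3.15 ± 0.31, and *Sparc* by 2.01 ± 0.15. *Mgp*, an inhibitor of calcification, went from 153 ± 70.8 to 1466 ± 798 CPM (log2 fold change of 3.18 ± 0.24, adjusted p = 2.27e-10). *Fbn1*, the fibrillin that stores TGF-beta, rose by 2.57 ± 0.23, and *Ccn2*, a TGF-beta target, by 0.63 ± 0.18, a call that was lost in the 8 plain-name libraries (0.37, adjusted p = 0.268). *Fbln5* was not called (0.39 ± 0.19).

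Of 14 tested basement membrane genes 10 rose and 2 fell. *Col4a1* and *Col4a2*, the collagen IV chains found in most basement membranes, rose by 1.79 ± 0.11 and 1.80 ± 0.15. *Col4a3* and *Col4a4*, the chains of the glomerular and distal tubular membrane, fell (-1.01 ± 0.15 and -0.66 ± 0.14). *Col4a1* ran from 68.9 to 117 CPM in the CL libraries (median 80) and from 207 to 335 CPM in the UUO libraries (median 292). *Col4a3* ran from 231 to 545 CPM in the CL libraries (median 347) and from 80.3 to 227 CPM in the UUO libraries (median 192), with no overlap between groups for either. Among 11 tested matrix proteases and inhibitors 8 rose and 2 fell. *Adamts1* and the membrane-type metalloproteinase *Mmp14* rose by 2.61 ± 0.14 and 2.60 ± 0.30, and *Timp3*, an inhibitor made by the kidney at rest, fell (-0.51 ± 0.13). The calls for *Col4a4* and *Timp3* were lost in the 8 plain-name libraries.

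Stromal genes rose with the matrix. All 13 tested genes of myofibroblasts and fibroblasts, of 22 listed, were called higher. *Acta2*, which encodes smooth muscle actin, had 44.8 ± 13.5 CPM in CL and 155 ± 47.3 CPM in UUO libraries (log2 fold change of 1.74 ± 0.19, adjusted p = 4.92e-08), and *Tagln* rose by 1.98 ± 0.17. *Pdgfrb*, the pericyte receptor for PDGF-BB, ran from 12.7 to 31 CPM in the CL libraries (median 13.9) and from 44.8 to 103 CPM in the UUO libraries (median 58.9) (log2 fold change of 1.82 ± 0.22, adjusted p = 2.88e-07). *Pdgfra* rose by 0.95 ± 0.23 and *Cdh11* by 2.48 ± 0.27. In TGF-beta and PDGF signalling 9 of 12 tested genes rose, among them the receptor *Tgfbr2* (1.51 ± 0.15) and *Smad3* (0.68 ± 0.20). The call for *Smad3* was lost within each name form, and that for *Pdgfra* in the 8 low-line libraries (adjusted p = 0.0602) and without the 5 libraries with both *Xist* and Y chromosome RNA (0.51, adjusted p = 0.176). *Bmp7*, which opposes TGF-beta in the kidney, fell from 42.4 ± 7.57 to 20.4 ± 9 CPM (log2 fold change of -1.11 ± 0.22, adjusted p = 1.99e-04) with no overlap. *Bmp4* was not called (0.28 ± 0.17), and the TGF-beta ligand genes *Tgfb1*, *Tgfb2* and *Tgfb3* did not pass the filter.

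Endothelial genes were called in both directions. Of 16 tested, 5 rose, 2 fell and 9 were not called, and the list's median was -0.03. Over all genes tested 20.4% rose and 22.5% fell. *Tek*, which encodes the receptor TIE2, had 34.4 ± 13.7 CPM in CL and 33.2 ± 15.8 CPM in UUO libraries, a log2 fold change of -0.06 ± 0.19 (95% interval -0.44 to 0.32). *Ptprb*, which encodes the phosphatase VE-PTP that dampens TIE2, had 54.8 ± 15.6 CPM in CL and 58.3 ± 18.9 CPM in UUO libraries, a log2 fold change of 0.02 ± 0.19 (95% interval -0.35 to 0.39). The VEGF receptors *Kdr* and *Flt1* were not called (-0.37 ± 0.20 and -0.44 ± 0.20), and *Vegfa*, their ligand, fell (-0.46 ± 0.15). *Pecam1*, *Cdh5* and *Eng*, which encode surface proteins of endothelial cells, rose by 0.72 ± 0.25, 0.63 ± 0.25 and 0.71 ± 0.19, and *Egfl7* by 0.47 ± 0.18. *Igfbp5*, which other kidney cells also make, fell (-0.93 ± 0.14). The call for *Pecam1* was lost on leaving out CL replicate 4, 6 or 8 or UUO replicate 2 or 4 (adjusted p = 0.0501 to 0.0657), that for *Cdh5* on leaving out any 1 library (0.0514 to 0.105) but CL replicate 7 and UUO replicate 8, where it held, and UUO replicates 1 and 6, where it was not tested, and that for *Egfl7* on leaving out any but CL replicates 3 and 5 and UUO replicates 1, 2 and 8 (0.0582 to 0.127). The calls for *Pecam1* (adjusted p = 0.144 and 0.111) and *Egfl7* (0.304 and 0.0962) were also lost within each name form, that for *Egfl7* by DESeq2 (0.0610) and without the name form (0.0686), and that for *Cdh5* in the 8 low-line libraries (0.461). The call for *Eng* was lost in the 8 low-line libraries, and that for *Vegfa* without TMM, on thinning and in the 8 plain-name libraries. Without the 5 libraries with both *Xist* and Y chromosome RNA the calls for *Pecam1*, *Cdh5*, *Egfl7* and *Vegfa* were lost (adjusted p = 0.0600, 0.286, 0.222 and 0.0648), and 2 endothelial genes were called higher and 2 lower of 21 tested. The angiopoietin genes *Angpt1* and *Angpt2* did not pass the filter.

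Macrophage and monocyte genes rose in all 17 tested cases of 30 listed. *Lyz2*, which encodes lysozyme, ran from 28.2 to 114 CPM in the CL libraries (median 84) and from 192 to 618 CPM in the UUO libraries (median 456) (2.39 ± 0.21). *Ccr2*, the chemokine receptor of inflammatory monocytes, had 6.83 ± 4.47 CPM in CL and 62.8 ± 27.1 CPM in UUO libraries (log2 fold change of 3.30 ± 0.26, adjusted p = 1.50e-10). *Cd14* rose by 3.49 ± 0.27, the complement gene *C1qb* by 1.97 ± 0.20, the mannose receptor *Mrc1* by 2.41 ± 0.32 and *Csf1r* by 0.65 ± 0.15, whose call was lost in the 8 plain-name libraries (adjusted p = 0.145). Of 21 lymphocyte genes 2 passed the filter, and these, *Igkc* and *Jchain*, were not called (0.76 ± 0.34 and 0.49 ± 0.35). The 16 genes of neutrophils and mast cells, *S100a8* and *S100a9* among them, did not pass the filter, and their summed level was 3.72 to 24.1 CPM in CL and 8.31 to 53.1 CPM in UUO libraries.

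Antigen presentation rose in all 17 tested genes of 19. The class II chain *H2-Aa* had 124 ± 30.8 CPM in CL and 431 ± 109.9 CPM in UUO libraries (1.78 ± 0.15) and its chaperone *Cd74* rose by 2.17 ± 0.20. *B2m*, the shared chain of class I, rose by 1.39 ± 0.12, the immunoproteasome subunit *Psmb8* by 1.83 ± 0.20 and *H2-T23* by 0.34 ± 0.11, whose call was lost within each name form and without the 5 libraries with both *Xist* and Y chromosome RNA (0.24, adjusted p = 0.275). Class I genes and *Tgtp1* have close copies among which reads may be shared, so that their own values are uncertain. Interferon-stimulated genes rose in 18 of 21 tested cases, but not evenly. The GTPase gene *Tgtp1* rose by 2.87 ± 0.22, the transcription factor *Irf1* by 1.96 ± 0.19, and *Isg15* by 1.20 ± 0.30, and the call for *Isg15* was lost in the 8 plain-name libraries (adjusted p = 0.0725) and without the 5 libraries with both *Xist* and Y chromosome RNA. *Rsad2*, *Ifit3* and *Ifit3b*, classic targets of type I interferon, were not called at -0.25 ± 0.22, 0.30 ± 0.19 and 0.46 ± 0.27.

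Proliferation genes rose from low levels. All 10 tested mitosis genes of 31 listed were called higher, with *Mki67* at 20.4 ± 13.1 CPM in CL and 75.5 ± 19.6 CPM in UUO libraries (1.90 ± 0.25), *Top2a* at 2.16 ± 0.24 and *Cdk1* at 2.00 ± 0.25. Of 13 tested replication genes 7 rose, 1 fell and 5 were not called. Those that rose included *Pcna* (0.85 ± 0.15) and *Mcm2* (1.26 ± 0.25). *Tyms*, which makes thymidylate, was not called (0.13 ± 0.15). *Cdkn1a*, which encodes the cell cycle inhibitor p21, rose from 9.11 ± 7.22 to 50.1 ± 31.3 CPM (log2 fold change of 2.29 ± 0.26, adjusted p = 8.97e-08), and *Btg2* and *Mdm2*, both p53 targets, rose by 1.26 ± 0.20 and 0.69 ± 0.18. The call for *Mdm2* was lost in the 8 plain-name libraries (adjusted p = 0.0782) and without the 5 libraries with both *Xist* and Y chromosome RNA.

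Structural genes of the cell rose as well. In the actin and tubulin list 22 of 24 tested genes rose. *Tmsb10* and *Tmsb4x*, which bind actin monomers, rose by 2.91 ± 0.21 and 1.58 ± 0.16, *Tubb5* by 1.76 ± 0.13 and *Actb* by 0.83 ± 0.12. *Itgb8* was not called (-0.26 ± 0.16). Of 12 tested genes of claudins and junctions 5 rose, 5 fell and 2 were not called, with 5 and 3 without TMM and 3 and 2 without the 5 libraries with both *Xist* and Y chromosome RNA. *Cldn4* and *Cldn1* rose by 2.97 ± 0.25 and 1.83 ± 0.25, and *Cldn10* and *Cldn2*, which form pores in the thick limb and proximal tubule, fell (-1.05 ± 0.12 and -0.31 ± 0.10). The call for *Cldn2* was lost without TMM and when the name form was left out. It was also lost in the 8 plain-name libraries (-0.14, adjusted p = 0.537) and on thinning (-0.19, adjusted p = 0.240). *Cdh1*, E-cadherin, rose by 0.40 ± 0.11, a call that was lost in the 8 low-line libraries and without the 5 libraries with both *Xist* and Y chromosome RNA (adjusted p = 0.0568). In the endoplasmic reticulum stress list 5 of 17 tested genes rose, where 20.4% of all genes did. The count was 10 of 17 without TMM and 9 of 16 with a mean count of at least 20. *Xbp1* was among those that rose (0.83 ± 0.15), and *Herpud1* fell (-0.77 ± 0.11), while the chaperone *Hspa5* was not called (0.14 ± 0.13). Ribosomal protein genes rose by little, with 35 of 47 called higher, none lower and a median log2 fold change of 0.44. *Rpl12* rose by 0.89 ± 0.12 and *Rpsa* by 0.69 ± 0.11. Without the 5 libraries with both *Xist* and Y chromosome RNA 19 were called, and without TMM 43.

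A few proximal tubule genes stood out by their spread. *Slc7a13* ran from 0.804 to 1008 CPM in the CL libraries (median 186) and from 2.67 to 166 CPM in the UUO libraries (median 96.9), *Cyp2e1* from 31 to 1106 CPM in the CL libraries (median 273) and from 52.8 to 258 CPM in the UUO libraries (median 165), and *Acsm3* from 7.04 to 1469 CPM in the CL libraries (median 174) and from 4.06 to 374 CPM in the UUO libraries (median 179). The groups overlapped for each of the 3, and none was called (adjusted p = 0.0786, 0.0641 and 0.283). With the level of *Xist* as a further term in the fit, the log2 fold change of *Slc7a13* moved from -1.97 to 0.04, that of *Cyp2e1* from -1.47 to -0.03 and that of *Acsm3* from -1.19 to 0.93. *Slc7a13* and *Cyp2e1* are known to be higher in male than in female mouse kidneys.

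The response was then set beside that of the 2 other control groups of the series, which share no library with the IgG mice. VeWT mice (8 UUO and 7 CL libraries) were Veptp wt/lox mice with a Cre driven by the endothelial *Cdh5* promoter that was not induced, and PbWT mice (4 and 4) were Cre-negative *Pdgfb* wt/lox or lox/lox mice. Both groups were littermates of the altered mice, and by the study's methods the PbWT CL libraries include kidneys of sham-operated mice that the labels do not mark. In VeWT mice 16.7% of 10909 genes were called higher and 18.0% lower, and in PbWT mice 17.9% and 19.0% of 10562. Of the 3141 genes called in IgG mice, 2208 were called in the same direction in VeWT mice, which is 70.3% of the first list and 58.3% of the second. In PbWT mice 2298 were, 73.2% and 58.9%. A further 5 genes in each group were called in the opposite direction.

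**Figure D5:**
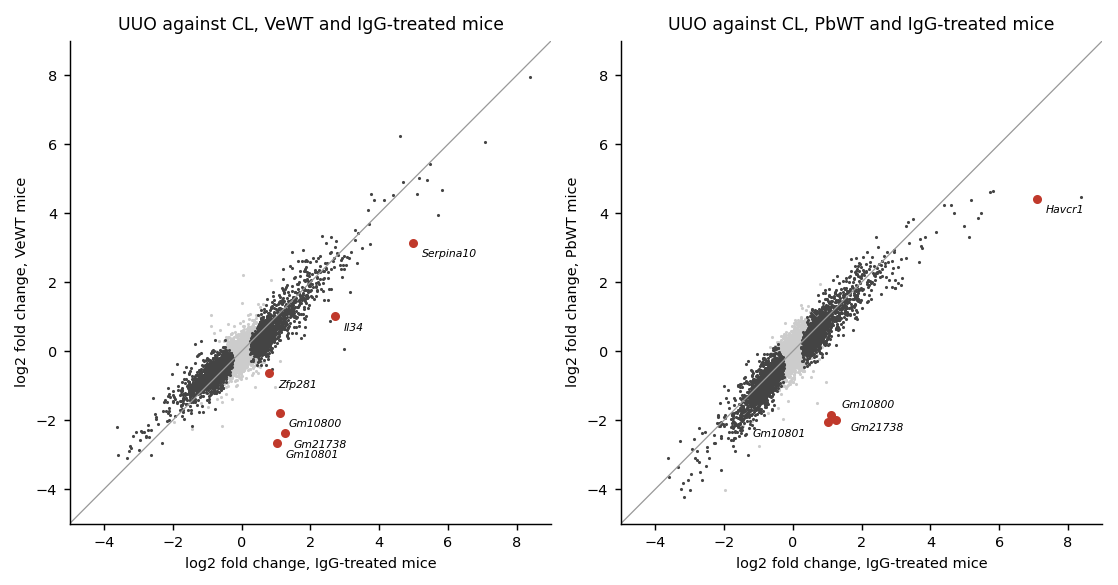
log2 fold change between UUO and CL kidneys in IgG-treated mice (x axis) against VeWT (left) and PbWT mice (right); dark points were called in IgG mice, and red, named points had a response that differed between the mouse groups. Most dark points lie near the diagonal, and Gm10800, Gm10801 and Gm21738 lie below it in both.

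Several of the lists were counted in the other control mice as well. Transporters of the proximal tubule were called lower in 26 of 33 cases in VeWT and 30 of 33 in PbWT mice, with *Slc13a1* the 1 member called higher in each. Nuclear complex I genes were called lower in 35 and 36 of 37, and cycle genes in 19 and 20 of 20. Collagens and fibril genes were called higher in 18 and 21 of 23, and macrophage genes in 24 and 25 of 26. Ribosomal protein genes were called higher in 23 and 6 of 47.

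The difference between responses was tested in 1 fit over the 3 groups. It was called for 8 of 11747 genes (0.0681%) between VeWT and IgG mice and for 5 (0.0426%) between PbWT and IgG mice, all with the lower value outside the IgG mice. *Havcr1* rose by 7.08 in IgG, 6.07 in VeWT and 4.42 in PbWT mice, and PbWT minus IgG was -2.61 ± 0.49 (adjusted p = 0.0203). All 8 PbWT libraries had plain names, and among plain-name libraries alone the difference for *Havcr1* was -2.19 and was not called (adjusted p = 0.695). In IgG mice *Havcr1* rose by 6.73 in plain-name and 7.40 in low-line libraries. VeWT minus IgG was -0.998 ± 0.47 for *Havcr1* and was not called (adjusted p = 0.601). *Serpina10* and *Il34*, a ligand of the receptor encoded by *Csf1r*, had lower values in VeWT mice, at 3.15 and 1.01 against 4.98 and 2.70 (differences -1.81 ± 0.39 and -1.67 ± 0.36, adjusted p = 0.0471 for both). Among plain-name libraries alone these differences were -0.29 and -0.56 and were not called, and with a mean count of at least 20 neither was called (adjusted p = 0.0741). The loci *Gm10800*, *Gm10801* and *Gm21738* rose in IgG mice and fell in both other groups. All 3 calls in IgG mice were lost without the name form in the fit (adjusted p = 0.0862 to 0.109) and in the 8 plain-name libraries (0.387 to 0.568). Reads may be shared among such unnamed loci, so that their values are uncertain. The call for *Gm21738* in IgG mice was lost without UUO replicate 3 (adjusted p = 0.0808), and that for *Gm10801* without CL replicate 1, 5, 6 or 7 or UUO replicate 3, 7 or 8 (0.0594 to 0.155), without the 5 libraries with both *Xist* and Y chromosome RNA (0.0564) and by DESeq2 (0.0546). With plain-name libraries alone, 0 genes were called in either difference, with 503 and 648 at an unadjusted p under 0.05.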

How the data were processed

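Whole-kidney RNA was sequenced with a UMI protocol, from 4 wells of a 384-well plate per sample that were pooled. The deposited values are raw UMI counts per gene, which the authors made with STAR 2.7.3a on mm10, UMI-tools 1.1.4 and featureCounts of Subread 1.4.6-p5. The gene annotation is not given in the sources used here. Each of the 75 columns matched 1 sample, and groups were taken from the labels.

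For the 16 IgG libraries, genes were kept by edgeR's filterByExpr (minimum count 10), which left 7325 of 32245. UUO was tested against CL with edgeR 4.0.16 (R 4.3.3), using TMM, the quasi-likelihood test and name form as a covariate, and Benjamini-Hochberg adjustment over all genes tested, with a threshold of 0.05. The study itself used edgeR's exact test, which is an alternative here. A pooled fit over IgG, VeWT and PbWT libraries, with a term for each group and the name form, tested differences between responses. DESeq2 1.42.0 was another alternative. Intervals of 95% are the fold change plus or minus a normal multiple of its standard error. Code was tested on simulated data. No 2 libraries of a group agreed within sampling noise, with chi-square per degree of freedom of at least 1.75 among CL and 1.46 among UUO libraries. Where the labels do not say that libraries came from separate mice, p-values measure the spread between these libraries. The filter limited tests to genes of moderate or high count.

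Named are the 12 largest rises and 12 largest falls among called genes with no overlap between groups and a mean count of at least 10, then, from 49 gene lists, called members with the lowest adjusted p in each direction, defining members and members not called. A few genes that this rule names are not reported here. Genes whose response differed between mouse groups are named as well. The lists and members were chosen with earlier results of these data known.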

Additional observations from a re-analysis of the deposited data

Results flagged for a closer look

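In groups of 8 libraries, 24 of 444 values tested with Dixon's criterion (5.41%) stood apart from the rest of their group, and chance alone flags about 1 in 20. Of these 13 were in CL and 11 in UUO libraries. The UUO library with replicate number 2 held 7 of them, and the CL library with replicate number 2 held 4.

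UUO replicate 2 had the highest UUO level of *Egf* (760.4 CPM, others 49.9 to 119), *Slc12a1* (579 CPM, others 158 to 291), *Slc26a4* (93.4 CPM, others 14.2 to 31.6) and *Acaa2* (341.5 CPM, others 116 to 184). It had the lowest of *Cxcl16* (106.7 CPM, others 164 to 191), *Irf1* (32 CPM, others 61 to 105) and *Rsad2* (10.7 CPM, others 36.7 to 56.1). On the first principal component it was also the UUO library nearest to the CL libraries. CL replicate 2 had the lowest level of *Lcn2* (0 CPM), *Atp2b1* (56.9 CPM), *Tek* (10.1 CPM, others 25.9 to 54.8) and *Jchain* (0 CPM).

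Other CL libraries stood apart in *Krt18* (9.55 CPM), *Aldh1a2* (0 CPM), *Slc12a3* (794.2 CPM), *Slc26a4* (89.2 CPM), *Fbn1* (4.32 CPM), *Vegfa* (121 CPM), *Mdm2* (8.64 CPM), *Tubb5* (45.4 CPM) and *Fabp4* (22.8 CPM). Other UUO libraries did so in *Krt8* (194.8 CPM), *Aqp4* (0 CPM), *Col4a1* (206.6 CPM) and *Cdh5* (9.18 CPM).

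The response to UUO differed between VeWT and IgG mice, by edgeR's test of the difference, for 8 genes, each with the lower value in VeWT mice. The differences on the log2 scale were -4.47 for *Aldh1a3* and -3.62 for *Gm10801* (adjusted p = 0.0154 for both), -3.55 for *Gm21738* (adjusted p = 0.0198), -3.93 for *Gm10717* (adjusted p = 0.0272) and -2.82 for *Gm10800* (adjusted p = 0.0276). Those of *Il34* (-1.67) and *Serpina10* (-1.81) had an adjusted p of 0.0471, and that of *Zfp281* (-1.39) of 0.0498. Among plain-name libraries alone those of *Il34* and *Serpina10* were -0.56 and -0.29, and none of the 8 was called there. With a mean count of at least 20 none of these 3 was called, nor was that of *Gm10800* (adjusted p = 0.0741 for each). *Aldh1a3* and *Gm10717* were not tested at that mean count, and *Aldh1a3* was not tested among plain-name libraries alone. Between PbWT and IgG mice they were -2.61 for *Havcr1*, -3.77 for *Gm10717*, -3.02 for *Gm10801*, -2.90 for *Gm10800* and -3.19 for *Gm21738*, with an adjusted p of 0.0203 for each.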

How the results depend on the processing

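Leaving out each of the 16 libraries in turn gave 2806 to 3365 called genes against 3141, and 0 called genes in each case for the interaction with name form. Thinning all libraries to the shallowest gave 1509 of 3395 tested, requiring at least a 2-fold change 847, and the plain-name libraries alone 1623 of 6216. In the other alternatives the count stayed within 1.5 times, among them DESeq2 (3011), the exact test without name form (2704), the fit without TMM (3327) and, added after the data were seen, the fit without the 5 libraries with both *Xist* and Y chromosome RNA (2481). VeWT minus IgG was called for 2 genes with a mean count of at least 20 and for 0 with plain-name libraries alone, and PbWT minus IgG for 0 in the latter. No paired analysis was possible because the labels do not say which CL and UUO kidneys came from the same mouse and the replicate numbers only name the libraries.

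Over the 219 named genes and all alternatives, 6545 of 6844 values kept their direction and side of the threshold, 198 lost the call, 81 gained one and 20 changed sign, all of these for genes that were not called. With *Xist* as covariate *Slc7a13* came to 0.0441, *Acsm3* to 0.93 and *Ptprb* to -0.00826. *Ldha* came to 0.0566 without TMM, 0.0427 in the exact test without TMM or name form and 0.0597 in plain-name libraries alone. *Tek* came to 0.0747 and 0.0821 in the first 2 of these settings and ranged from -0.17 to 0.0383 when 1 library was left out. *Ptprb* came to -0.0789 without the filter, -0.0327 with ABTAA libraries in the fit, -0.00135 with legacy dispersions and -0.21 in plain-name libraries alone, and ranged from -0.11 to 0.10 when 1 library was left out. The cause of these changes was not tested. DESeq2 gave no adjusted p for *Egf* and *Calb1*, which therefore have no value there. The ligands *Tgfb1*, *Ccl2* and *Angpt2* and most lymphocyte and neutrophil genes did not pass the filter on low counts. The part of depth in this was not tested.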
